A study of Mus musculus with 12 samples.

Results

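The genes described here encode the protein kinases usually named in synaptic tagging and late long-term potentiation, together with Creb1, a transcription factor that these kinases phosphorylate. They were taken from a list of 9 symbols, Camk2a, Camk2b, Camk4, Prkcz, Prkci, Prkaca, Prkacb, Mapk3 and Creb1. Each symbol matched 1 Ensembl ID of the 55471 in the deposited table. All 9 passed the filter on low counts, which kept 19492 genes, and none needed a high level in 1 group to pass, since the lowest count of any of them in any library was 1736 (Creb1).

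Expression was measured by poly(A) RNA sequencing of ventral CA1, the ventral part of the main output field of the hippocampus, cut from acute horizontal slices. The mice were wild-type C57BL/6J males, 5 to 7 weeks old. Slices were frozen 30 min after stimulation, and each library pooled 6 slices. There were 4 groups of 3 libraries. In Control slices the electrodes were positioned but gave no more than basal test pulses. In STET slices the tetanus consisted of 3 trains of 100 pulses at 100 Hz, a protocol used to induce late potentiation. STET_S100 and STET_S200 slices received the same tetanization together with stimulation of the basolateral amygdala in the same slice, at 100 Hz and 200 Hz by the sample titles. The bracketed pulse rate for STET_S200 reads 100 Hz, so the labels conflict on the rate, and the title's name is kept here. According to the protocol, each mouse gave 4 slices, 1 to each group, so the groups share animals. What the groups share beyond that is the wild-type genotype, the long incubation of the slices and the electrodes. The dissected piece holds all cell types around the electrodes, so that fewer cells of a type and less RNA per cell cannot be told apart in any value below.

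The calcium and calmodulin dependent kinase CaMKII, built from subunits encoded by Camk2a, Camk2b and related genes, is activated by calcium entry through NMDA receptors and is a core element of the tag set at a stimulated synapse. Camk4 encodes a nuclear kinase of the same pathway that phosphorylates CREB. Prkcz and Prkci encode the atypical protein kinases C, and Prkcz also yields PKMzeta, a shorter and constantly active form made from an internal start site in brain and studied as a kinase of potentiation maintenance. Prkaca and Prkacb encode catalytic subunits of the cyclic AMP dependent kinase PKA. Mapk3 encodes the ERK1 kinase. These enzymes are regulated chiefly on the protein, by calcium, second messengers, phosphorylation or local translation, which messenger counts do not measure.

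Short stretches of promoter are shown because CREB binds the cyclic AMP response element, and because the gene counts of Prkcz, Prkaca and Prkacb pool transcripts from several start sites. RefSeq start sites on GRCm38.p6 were available for 6 of the 9 genes, in 11 windows. The bases before each start were searched on both strands for the full element TGACGTCA and for its shorter core TGACG, which reads CGTCA on the other strand and lies within the full element. The full element lay wholly within the upstream bases in none of the 11 windows, and in 1.55% of all 32851 windows, each with 250 upstream bases. An element running across a start site was not searched for. The core 7 bases before the second Prkcz start lies too close to it for the full element to fit within the upstream bases. That window runs on past the start, but those bases were not searched. Whether the full element is present there was therefore not determined. The core was in 4 of the 11 windows, against 17.8% of all windows. The sequences read along the gene's strand and end at the start site where that comes first, with the core in capitals.
Prkcz, the second start site (chr4:155345790-155345816, minus strand, 7 bases before the start): cagagacgcttgtttccgtgTGACGtc
Prkcz, the third start site (chr4:155344750-155344792, minus strand, 23 bases before the start): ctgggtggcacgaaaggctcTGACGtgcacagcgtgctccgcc
Prkaca, the first start site (chr8:83972838-83972882, plus strand, 120 bases before the start): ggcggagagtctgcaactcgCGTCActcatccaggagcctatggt
Prkaca, the first start site (chr8:83972952-83972977, plus strand, 6 bases before the start): tgggcggtgggctgcgggggCGTCAc
Prkacb, the first start site (chr3:146813024-146813068, minus strand, 102 bases before the start): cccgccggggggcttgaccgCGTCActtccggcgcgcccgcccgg
A match describes letters in these windows and is no evidence of binding. The windows of Camk2b, Prkci and Creb1 held no core. The counts cannot say from which start a transcript came.

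Sequencing depth was high for all of these genes. Total counts per library ranged from 36347161 in Control 3 to 52829181 in Control 1. Levels are given in CPM, the count of a gene relative to the library's total after TMM scaling, which uses a trimmed mean of gene-wise ratios between libraries. Markers of excitatory neurons were abundant in every library, with Slc17a7, the vesicular glutamate transporter, at 1196 CPM or more and the CA1 marker Fibcd1 at 290 CPM or more, while the dentate gyrus marker Prox1 lay between 16.5 and 61.4 CPM. The summed level of 6 choroid plexus markers ran from 205 to 1280 CPM in Control, 277 to 2416 in STET, 19.4 to 3028 in STET_S100 and 5.75 to 50.2 in STET_S200. The fat and capillary gene Fabp4 was at 7.08 to 8.46 CPM in 5 libraries (STET_S200 2 and 3, STET_S100 1, STET 3 and Control 3) and no higher than 0.275 CPM in the 7 others. As a check of the stimulation, 11 immediate early genes were read, and their log2 fold changes over Control were positive for 11 of 11 in each tetanized group. All 3 libraries lay above Control for 11 of them in STET, 6 in STET_S100 and 8 in STET_S200, beside the 8.89%, 10.1% and 11% of all genes that lay apart in either direction. The smallest difference was that of Fosb, named here after its values were seen, at 0.21, 0.17 and 0.02 on the log2 scale. Arc averaged 96.7 CPM in Control and 258, 270.0 and 228 CPM in STET, STET_S100 and STET_S200, with no overlap with Control in any of the 3. Npas4 averaged 63.8 CPM in Control and 210.0, 206 and 162 CPM in the same order, and Fos 157 against 263, 250.5 and 247 CPM, also without overlap. None of the 11 passed the threshold over all genes (edgeR quasi-likelihood F test, lowest adjusted p = 0.786, for Arc and Npas4 in STET_S200).

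Per length of annotated exon the genes spanned a wide range of levels. Camk2a stood at 468 ± 23.9 CPM per kb (SD over 12 libraries), the highest of the 9, and no other gene of the 9 came near it in any library. Camk2b (81.7 ± 2.78) and Prkaca (79.0 ± 2.36) followed, and their ranges over the libraries, 77.2 to 86.2 and 76.7 to 84.4, overlapped. Mapk3 (50.1 ± 3.61) and Prkacb (47.0 ± 3.80) formed the next pair with overlapping ranges. Below them came Prkcz at 27.7 ± 0.774, Camk4 at 16.4 ± 0.830, Prkci at 10.7 ± 0.337 and Creb1 at 3.68 ± 0.148 CPM per kb, each with a range apart from its neighbours. These lengths count every annotated exon of GENCODE M21, so a gene with long exons that are rarely used, such as Creb1 with 13742 bases, comes out lower than its main transcript would. Within families the order was Camk2a, Camk2b, Camk2g (26.3) and Camk2d (3.75 CPM per kb) for the CaMKII subunits. Of the conventional protein kinases C, Prkcb (71.3 CPM per kb) lay above Prkcz in every library, while the range of Prkca, 17.2 to 24.9, lay below the 26.8 to 29.0 of Prkcz.

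**Figure D1:**
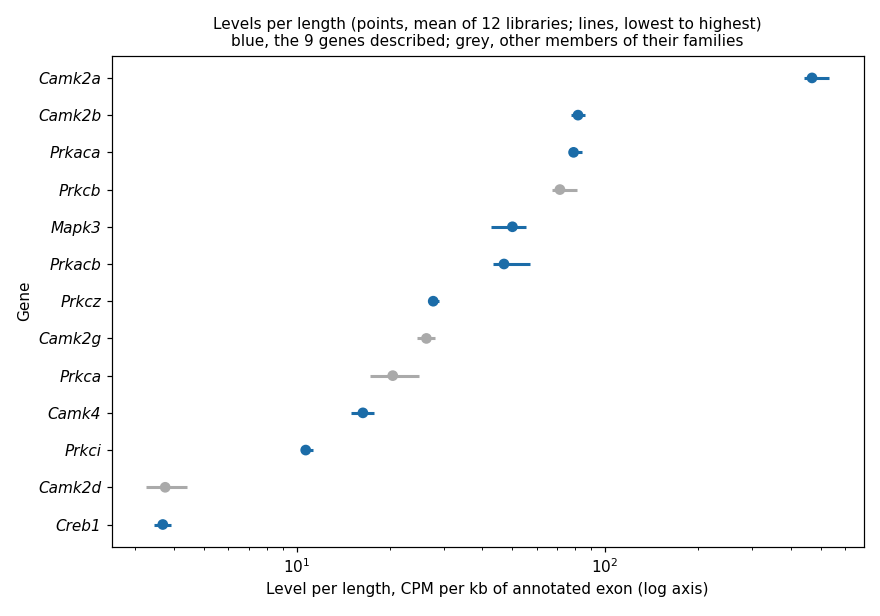
Level per length (CPM per kb of annotated exon, log axis) of the 9 genes in blue and of related kinase genes in grey, with points for the mean of 12 libraries and lines from the lowest to the highest library. Camk2a stands highest at 468 and Creb1 lowest of the 9 at 3.68 CPM per kb.

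The first question was whether tetanization, alone or with amygdala stimulation, changed the messenger level of these genes within 30 min. In the fit none of the 9 passed the threshold of an adjusted p of 0.05 in any of the 7 comparisons between groups or in the test of any difference among the 4 groups. The background was 0% of 19492 genes called by edgeR in each of these tests. At an unadjusted p under 0.05 edgeR marked 1 of the 9 in STET against Control and 1 in STET_S200 against STET, Camk4 both times, and 0 in the 5 other comparisons, beside 3.5% and 4.56% of all genes. In the 5 others the shares of all genes were 5.16% (STET_S100 over Control), 5.92% (STET_S200 over Control), 3.16% (STET_S100 over STET), 5.2% (STET_S200 over STET_S100) and 5.47% (all tetanized groups over Control). The test of any difference among the 4 groups marked 1, again Camk4, beside 4.1% of all genes. DESeq2 and limma-voom also called 0 of the 9 in all 8 tests. Unlike the main edgeR fit, each marked 1 of the 9 at an unadjusted p under 0.05 in STET_S100 and in STET_S200 over Control. All genes so marked there numbered 803 and 1004 with DESeq2, and 1031 and 1110 with limma-voom. The smallest p of the 9 there in the main edgeR quasi-likelihood F test was 0.0557 (Prkcz) and 0.0503 (Mapk3). Without the robust option edgeR also marked 1 of the 9 in each, beside 1049 and 1220 of all genes. With other scalings or filters edgeR marked 1 in STET_S200 over Control, beside 1124 to 1976 of all genes, and 0 in STET_S100 over Control. Groups lay apart without overlap for 1 of the 9 in STET over Control (8.89% of all genes), 1 in STET_S100 over Control (10.1%), 0 in STET_S200 over Control (11%), 1 in STET_S200 over STET (12%) and 1 in STET_S200 over STET_S100 (9.34%). Over the 3 comparisons with Control, the 95% confidence intervals of the 9 genes reached at most 18.9% below Control (a fold change of 0.811, Mapk3 in STET_S200) and at most 10.8% above it (Creb1 in STET_S100). These intervals hold for each estimate by itself and are not adjusted for the number of genes.

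**Figure D2:**
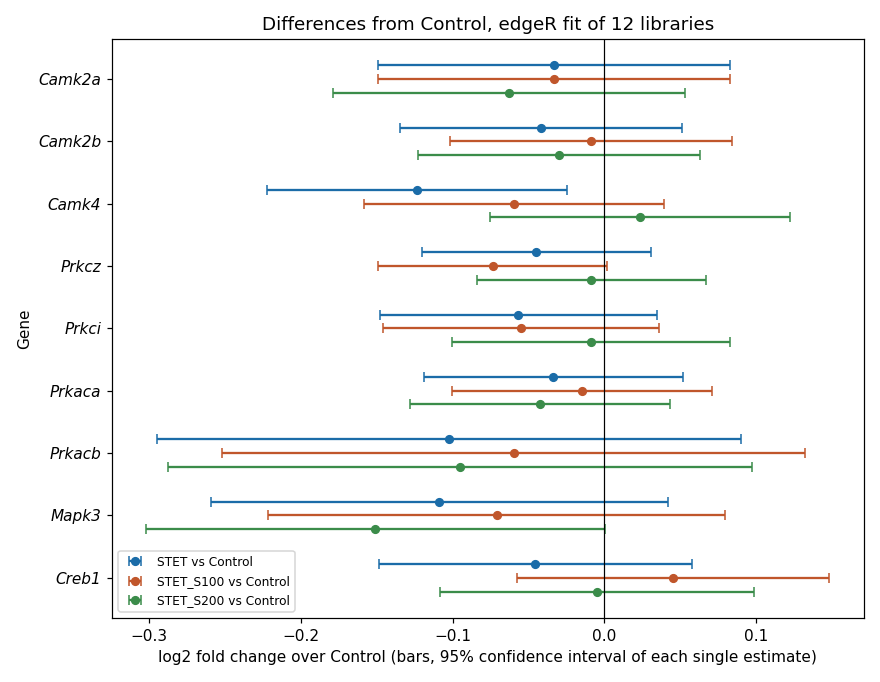
Log2 fold change of each gene over Control in STET, STET_S100 and STET_S200, with bars for the 95% confidence interval of the single estimate from the edgeR fit. Most estimates lie a little below 0, and the interval of Camk4 in STET is the only one that leaves out 0.

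The estimates against Control leaned to the lower side. In STET all 9 were negative, the median log2 fold change being −0.05 and the range −0.12 to −0.03, beside a median of −0.0002 and 49.9% positive over all genes tested. In STET_S100, 8 of 9 were negative (median −0.05, all genes 0.002) and in STET_S200 again 8 of 9 (median −0.03, all genes 0.002). Among genes at 10 CPM or more, 46.4% were positive in STET, 49.1% in STET_S100 and 53.9% in STET_S200. These 3 comparisons use the same Control libraries and are not independent of each other. Without Control 1, 1 of the 9 was positive in STET, 2 in STET_S100 and 4 in STET_S200, and with the 7 libraries low in Fabp4 the numbers were again 1, 2 and 4. They were 1, 3 and 2 without Control 2, and 1, 2 and 3 without Control 3. Without Control 1, 2 and 3 in turn, the median was −0.06, −0.09 and −0.05 in STET. In the same order it was −0.04, −0.05 and −0.07 in STET_S100, and −0.0003, −0.05 and −0.01 in STET_S200.

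The CaMKII subunit genes came first by level. Camk2a (ENSMUSG00000024617, the alpha subunit, used widely as a marker of forebrain excitatory neurons) was at 3330, 3980 and 3416 CPM in Control, 3359, 3533 and 3591 in STET, 3535, 3489 and 3459 in STET_S100 and 3561, 3408 and 3299 in STET_S200. Control 2 stood above the 11 other libraries, and the groups overlapped. The log2 fold change was −0.03 ± 0.05 (SE) in STET, −0.03 ± 0.05 in STET_S100 and −0.06 ± 0.05 in STET_S200, and each turned positive (0.05, 0.05 and 0.02) without Control 2. The 95% interval for STET ran from −9.81% to 5.94%, as a change in level. Camk2b (ENSMUSG00000057897, the actin-binding beta subunit) was at 729, 787 and 751 CPM in Control, 717, 769 and 716 in STET, 744, 769 and 740 in STET_S100 and 770, 746 and 705 in STET_S200, all groups overlapping. Its log2 fold changes over Control were −0.04, −0.01 and −0.03, each with an SE of 0.04.

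Camk4 (ENSMUSG00000038128), the nuclear CREB kinase, varied most between the groups relative to the spread within them. Its levels were 56.1, 54.7 and 53.9 CPM in Control, 53.2, 48.7 and 49.2 in STET, 52.5, 51.3 and 54.2 in STET_S100 and 55.7, 53.8 and 57.9 in STET_S200. All 3 STET libraries lay below all 3 Control libraries and below all 3 STET_S200 libraries. STET_S100 lay between them and overlapped with each of the other groups. The log2 fold change of STET over Control was −0.12 ± 0.05 (adjusted p = 1.00), that of STET_S200 over Control 0.02 ± 0.05 (adjusted p = 0.964) and that of STET_S200 over STET 0.15 ± 0.05 (adjusted p = 0.938, edgeR). Without any 1 library the value for STET over Control stayed between −0.17 and −0.10 and that for STET_S200 over STET between 0.12 and 0.19. The value for STET_S200 over Control was −0.004 without STET_S200 3. With a score from the choroid plexus markers in the fit, an alternative chosen after seeing the data, the value for STET_S200 over STET was 0.10 ± 0.06. The summed choroid plexus markers did not overlap between STET_S200 and STET, so choroid plexus content and group cannot be told apart there. An antisense gene, 2310026I22Rik, shares 72 exon bases with Camk4 (2.21% of its exon length), and the strand setting of the counting is not given in the sources used here.

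The atypical protein kinases C varied less over the libraries than most genes at 10 CPM or more, a set not matched for level. Prkcz (ENSMUSG00000029053) was at 181, 178 and 178 CPM in Control, 179, 170 and 171 in STET, 169, 170 and 171 in STET_S100 and 177, 173 and 183 in STET_S200. All 3 STET_S100 libraries lay below all 3 libraries of Control and of STET_S200, although the whole range over 12 libraries was no more than 1.08-fold. The log2 fold change of STET_S100 over Control was −0.07 ± 0.04 (adjusted p = 0.902) and that of STET_S200 over STET_S100 0.07 ± 0.04 (adjusted p = 0.967, edgeR). In STET and STET_S200 the values over Control were −0.04 ± 0.04 and −0.01 ± 0.04, with overlap. Because PKMzeta and the full-length kinase share this gene, the counts sum both and cannot say in which form a change lies. A shift between the forms that left the sum unchanged would not show. Prkci (ENSMUSG00000037643), the iota form that can stand in for its relative in knockout mice, was at 62.8, 57.4 and 61.7 CPM in Control, 59.1, 57.7 and 58.1 in STET, 59.0, 57.2 and 59.0 in STET_S100 and 62.1, 58.7 and 60.0 in STET_S200. All groups overlapped, with log2 fold changes over Control of −0.06, −0.05 and −0.01 (SE 0.04 each).

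The PKA catalytic genes differed in how much they varied. Prkaca (ENSMUSG00000005469, the alpha catalytic subunit) was at 192, 198 and 210 CPM in Control, 201, 194 and 191 in STET, 193, 195 and 205 in STET_S100 and 196, 191 and 195 in STET_S200, with overlap between all groups and log2 fold changes over Control of −0.03, −0.01 and −0.04 (SE 0.04 each). Without Control 3 the first 2 of these were positive, 0.004 and 0.02, and that of STET_S100 was 0.001 without STET_S100 1. Prkacb (ENSMUSG00000005034, the beta catalytic subunit) was at 501, 412 and 379 CPM in Control, 427, 388 and 390 in STET, 409, 398 and 433 in STET_S100 and 427, 401 and 383 in STET_S200. Control 1 was the highest of all 12 libraries and Control 3 the lowest, so that the Control group spanned the values of all others. The log2 fold changes over Control, −0.10, −0.06 and −0.09 (SE 0.09 each), became 0.02, 0.06 and 0.03 without Control 1. Over 12 libraries the coefficient of variation was 8.08% for Prkacb and 2.99% for Prkaca, where the median of the 9882 genes at 10 CPM or more was 4.81%.

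Mapk3 (ENSMUSG00000063065), the ERK1 gene at the end of the Ras and MEK cascade, gave the most negative estimate of the 9. It was at 125, 122 and 111 CPM in Control, 112, 109 and 112 in STET, 111, 106 and 124 in STET_S100 and 115, 112 and 96.1 in STET_S200. STET_S200 3 was the lowest library, and every group overlapped with Control. The log2 fold change of STET_S200 over Control was −0.15 ± 0.07 (adjusted p = 0.828, edgeR), it was −0.08 ± 0.06 without STET_S200 3, and it was −0.25 ± 0.07 with the choroid plexus score in the fit. The summed choroid plexus markers did not overlap between STET_S200 and Control, so that choroid plexus content and group cannot be told apart in this comparison. In STET and STET_S100 the values were −0.11 ± 0.07 and −0.07 ± 0.07.

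Creb1 (ENSMUSG00000025958), the transcription factor, was at 52.3, 47.4 and 52.2 CPM in Control, 47.2, 49.1 and 50.9 in STET, 53.6, 50.3 and 52.8 in STET_S100 and 49.6, 51.5 and 50.3 in STET_S200. The groups overlapped in every pair. Its log2 fold changes over Control were −0.05 in STET, 0.05 in STET_S100 and −0.005 in STET_S200, each with an SE of 0.05. The estimate for STET_S100 was the only positive one of the 9 in that comparison.

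**Figure D3:**
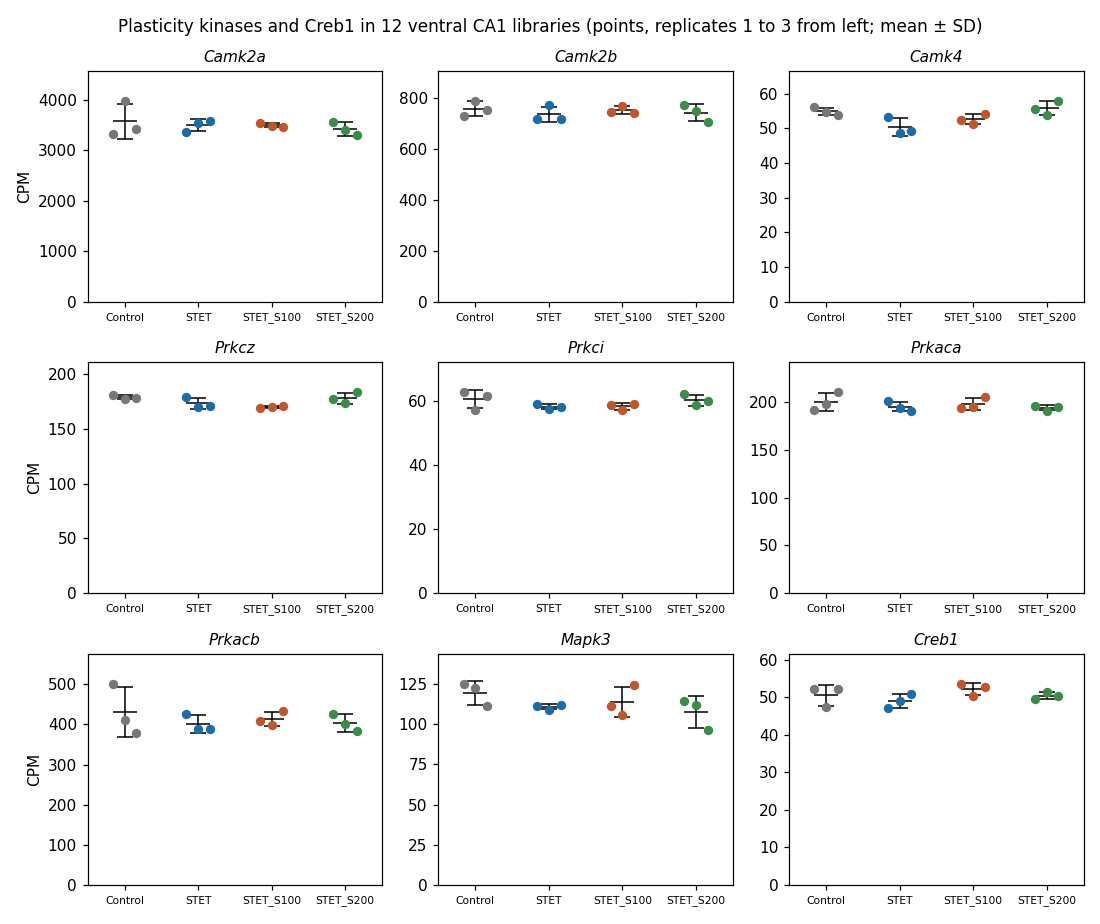
CPM of each gene in the 12 libraries by group, with points for replicates 1 to 3 from left to right and bars for the mean ± SD of 3 libraries. Levels run from 3299 to 3980 CPM for Camk2a and from 47.2 to 53.6 CPM for Creb1. The highest and lowest library lie furthest apart for Prkacb, 1.32-fold (379 to 501 CPM). The STET libraries of Camk4 (48.7 to 53.2 CPM) lie below its Control libraries (53.9 to 56.1 CPM).

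The tetanized groups were also compared with each other, for the amygdala stimulation added to the tetanization. The summed choroid plexus markers did not overlap between STET_S200 (5.75 to 50.2 CPM) and STET (277 to 2416 CPM). Choroid plexus content and the amygdala stimulation therefore cannot be told apart in STET_S200 over STET. Adding 100 Hz to the tetanization gave log2 fold changes from −0.03 (Prkcz) to 0.09 ± 0.05 (Creb1), with 7 of 9 positive and 0 of 9 without overlap, beside 9.6% of all genes without overlap. Adding 200 Hz gave values from −0.04 (Mapk3) to 0.15 (Camk4), with 6 of 9 positive. STET_S200 against STET_S100 ran from −0.08 (Mapk3) to 0.08 (Camk4), with 3 of 9 positive. These counts of signs moved with single libraries and settings. For STET_S200 over STET_S100 the count was 5 of 9 without STET_S200 3 or with the choroid plexus score, and 6 of 9 in the 7 libraries low in Fabp4. For STET_S200 over STET it was 4 of 9 without STET 3 or without STET_S200 1, and 8 of 9 in the libraries low in Fabp4. For STET_S100 over STET it was 5 of 9 without STET_S100 3. The intervals of the 9 genes reached from −12.5% to 18.5% for 200 Hz over tetanization alone, and from −9.86% to 17.7% for 100 Hz. Taking the 3 tetanized groups as 1 mean against Control, all 9 estimates were negative, from −0.11 ± 0.06 (Mapk3) to −0.002 ± 0.04 (Creb1), and 0 of 9 were without overlap, beside 0.99% of all genes.

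Variation over the 12 libraries was small for most of these genes and ranged from 2.79% (Prkcz) to 8.08% (Prkacb) as a coefficient of variation. Of the 9882 genes at 10 CPM or more, 8.23% varied less than Prkcz, 11.2% less than Prkaca, 14.4% less than Prkci and 19.8% less than Camk2b. For Creb1 (4.01%) the share was 32.5%. Camk4 (5.06%) and Camk2a (5.10%) were near the median of 4.81%, while 81% of genes varied less than Mapk3 and 86.9% less than Prkacb. The genes behind these shares were not matched for level, and sampling noise weighs more on genes with fewer counts. The highest and lowest library differed by 1.32-fold for Prkacb, 1.30-fold for Mapk3 and 1.21-fold for Camk2a.

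The balance between related subunits does not depend on how libraries are scaled, and it was compared between the 9 tetanized and the 3 Control libraries with exact two-sided permutation tests over 220 assignments, for which the smallest possible p is 0.00455. The ratio of Camk2a to Camk2b counts ran from 4.54 to 5.02 in tetanized and from 4.55 to 5.06 in Control libraries, a difference in mean log2 ratio of −0.01 (exact permutation p = 0.859). Prkcz to Prkci ran from 2.86 to 3.05 against 2.88 to 3.09, a difference of −0.004 (exact permutation p = 0.900). Prkaca to Prkacb ran from 0.459 to 0.509 against 0.382 to 0.554, a difference of 0.05 (exact permutation p = 0.514). Adjusted over the 3 ratios, p was 0.900 for each in the exact test. Tetanized libraries of the Prkaca to Prkacb ratio all lay within the span of the 3 Control libraries, of which Control 1 was the lowest and Control 3 the highest. In the 7 libraries low in Fabp4 the difference was 0.16 for Prkaca to Prkacb, −0.06 for Camk2a to Camk2b and −0.02 for Prkcz to Prkci.

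**Figure D4:**
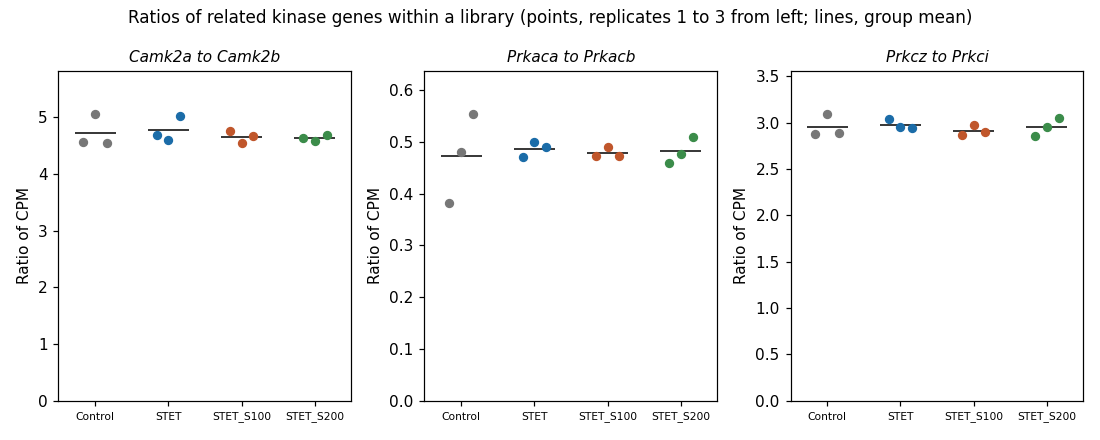
Ratio of CPM of related kinase genes within each library by group, with points for replicates 1 to 3 from left to right and lines for the group mean. The ratios of the tetanized groups lie within or close to the Control libraries, which spread from 0.382 to 0.554 for Prkaca to Prkacb.

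Around these kinases, 89 further genes of the same pathways were described from 7 lists. The lists covered calmodulin and CaM kinase partners, the protein kinase C family and its partners, PKA regulation and the ERK pathway. They also covered CREB partners, kinases of translation, and opposing phosphatases with their regulators. All 89 were tested, and 0 rose and 0 fell past the threshold in any of the 7 comparisons (edgeR), and at an unadjusted p under 0.05 there were 2 of 89 in each of STET, STET_S100 and STET_S200 over Control and 3 for the 3 groups' mean over Control, beside 3.5%, 5.16%, 5.92% and 5.47% of all genes. In STET against Control 27 were positive and 62 negative with a median of −0.02, and in STET_S100 31 and 58 with a median of −0.02. In STET_S200, 49 were positive and 40 negative with a median of 0.006, and over STET 65 were positive with a median of 0.04. Over all genes tested, 49.9%, 50.8% and 50.6% were positive in the 3 comparisons with Control, and 51% in STET_S200 over STET. Among genes at 10 CPM or more, the shares in the same order were 46.4%, 49.1%, 53.9% and 58%, leaning as the pathway genes did but less far. The regulators of PKA, its regulatory subunits, inhibitors, anchoring proteins, adenylyl cyclases and phosphodiesterases, had 2 of 16 positive in both STET and STET_S100 (medians −0.06 and −0.06) and 9 of 16 in STET_S200 (median 0.008). The CaM kinase partners had 1, 4 and 5 of 13 positive in STET, STET_S100 and STET_S200. The protein kinase C family with its partners had 5, 6 and 7 of 13, and the ERK pathway 6, 7 and 7 of 16. The CREB partners had 5, 5 and 6 of 10 positive, and the kinases of translation 4, 3 and 7 of 12. The phosphatases with their regulators had 4, 4 and 8 of 9. The difference between groups or lists in these counts was not tested.

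By rule, at most 2 pathway genes with the smallest p are named for each comparison, so their number was set in advance. Groups without overlap below stand beside 8.89% of all genes in STET and 10.1% in STET_S100 over Control. In STET the smallest p was that of Rptor, the scaffold of the mTOR complex (80.7 ± 1.67 against 86.2 ± 2.69 CPM in Control, log2 fold change −0.09, no overlap). In STET_S100 the genes were Rasgrf1, a Ras activator controlled by calcium (432 ± 32.5 against 474 ± 10.8 CPM, −0.13), and the conventional kinase gene Prkca (207 ± 16.9 against 172 ± 13.0 CPM, 0.27 ± 0.11, no overlap). In STET_S200 they were Ppp3ca, the catalytic subunit of calcineurin (1289 ± 59.5 against 1208 ± 30.7 CPM, 0.09), and the CREB coactivator gene Crtc1 (191 ± 6.55 against 204 ± 13.2 CPM, −0.10). Over the 4 groups they were the phosphatase gene Ppp1cc, lowest in STET at 74.3 ± 1.07 CPM, and Camk2n2, a CaMKII inhibitor gene, lowest in STET at 66.8 ± 3.96 CPM (adjusted p = 0.980 for both). None passed, with adjusted p of 0.828 to 1.00 in edgeR (SD, 3 libraries a group).

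Likeness of pattern was described as Pearson's r of log2 CPM over the 12 libraries, which share mice, depth and scaling, against 10158 genes with a mean log2 CPM of 3 or more. Closest to Camk2a were Nsmf (0.948) and Epas1 (0.934), and closest to Camk2b were Zbtb20 (0.878) and Fars2 (0.870). Camk4 ran closest to Rab5b (0.926) and Snap91 (0.912), Prkcz to Evl (0.943) and Dmtn (0.938), and Prkci to Phospho2 (0.889) and Tusc3 (0.852). The nearest genes of Prkaca were Fmnl3 (0.917) and Zfp239 (0.878), of Prkacb Rap1gap2 (0.926) and Mak16 (0.905), of Mapk3 Gpld1 (0.931) and Epb41l4b (0.889), and of Creb1 Kcns1 (0.853) and Trappc5 (0.829). None of the 9 was among the nearest genes of another.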

How the data were processed

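Deposited values were whole-number read counts per Ensembl gene ID with no scaling, 1 column per library, as the authors' table holds them. The submitters' processing notes name HTSeq 0.11.2, STAR 2.7.1a, limma, R 4.0.2 and Trimmomatic 0.39, without settings. The genome build, annotation and strand setting behind the counts: not given in the sources used here. Of 55471 IDs, 55144 had a symbol and 55230 (99.6%) were in GENCODE M21, which gave exon lengths. Counts were scaled by TMM and tested in edgeR 4.0.16 (R 4.3.3) with the robust quasi-likelihood F test, 1 coefficient per group, genes kept by filterByExpr (minimum count 10, minimum total 15) and Benjamini-Hochberg adjustment over 19492 genes, threshold 0.05. Fold changes of edgeR carry the SE of the fit. DESeq2 1.42.0, limma-voom (limma 3.58.1), other scalings and filters, the replicate number as a block, the compared groups alone and each library left out were alternatives; the test scripts were tested on simulated data. The genes and lists were chosen with earlier results of these data known. Named genes are the 9, the pathway genes with the 2 smallest p in each comparison with Control and over the 4 groups, Arc, Npas4 and Fos, close relatives, and the 2 genes most like each of the 9, predicted genes left out. A few genes under this rule are not reported here. Read pairs are not independent molecules. Same-group libraries differed well beyond sampling noise (chi-square per degree of freedom 5.16 or more), so each was counted once. P-values treat the 12 libraries as independent although groups share mice.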

Additional observations from a re-analysis of the deposited data

How the results depend on the processing

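Of the 9 genes, 0 passed the threshold in each of the 24 alternative settings and each comparison a setting could give, and the smallest adjusted p was 0.208 (Mapk3, STET_S200 against Control, no filter). Their 1503 alternative log2 fold changes lay between −0.25 and 0.19. Of these, 39 moved by more than the SE of the reported value and 82 changed sign, all for genes without a call whose reported value was at most 0.10 in size. The counts over all genes, 0 in every comparison, were larger in some settings. In the order STET, STET_S100 and STET_S200 over Control, STET_S100 over STET, STET_S200 over STET, STET_S200 over STET_S100, the mean of the stimulated groups over Control and any difference, they were 16, 42, 69, 22, 34, 98, 52 and 192 with no filter and 1, 3, 4, 1, 16, 5, 7 and 12 with DESeq2. With a term for the libraries above 1 CPM of Fabp4, chosen after seeing the data like the other 2 settings on tissue content, the counts were 2 in STET, 1 in STET_S200, 4 for the mean, 1 each for STET_S100 and STET_S200 over STET and 1 for any difference. The 7 libraries low in Fabp4 gave 4 for the mean, and the compared groups alone gave 1 for STET_S100 over Control. Leaving out 1 library gave 0 to 1 for STET_S100 over Control, STET_S100 over STET, the mean and any difference, 0 to 2 for STET_S200 over Control and 0 to 8 for STET_S200 over STET_S100. The cause of these differences was not tested.

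The replicate number as a block left the count at 0 of the 9 and at 0 over all genes in every comparison. Libraries with the same number did not deviate together throughout (correlations of −0.285 to 0.33 over 18 pairs, 7 of them above 0.1, and 7 of 12 libraries closest to their own number), so the numbers were not used as pairs. In the ratios, permuting within replicate numbers gave an exact permutation p of 0.906, 0.453 and 0.906. Their differences changed sign without Control 2 (Camk2a to Camk2b, 0.04, and Prkcz to Prkci, 0.03) and without Control 1 (Prkaca to Prkacb, −0.10); Prkcz to Prkci also did so, to a value near 0, without the first library of STET_S100 or of STET_S200. None passed.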
